A study of Mus musculus with 14 samples.

Results

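Dab2 and Emp1 are 2 of the 19057 genes that carried a symbol on these arrays, and they were set apart because every brain metastasis (BrM) array was known to lie above every control array of spleen or bone marrow. They were therefore chosen by measured values, and their BrM-to-control difference is given below as a description, with no test. All their probes were taken by gene symbol, which gave 4 probes for Dab2 and 1 for Emp1, or 5 of 45281 probes. The study sought gene promoters active in the progeny of transplanted hematopoietic stem cells inside BrM. RNA of sorted GFP+CD11b+ myeloid cells was hybridized to 14 MouseWG-6 v2 arrays (Illumina), and the values are log2 signals that the authors had background-corrected and quantile normalized.

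The arrays covered 4 PyMT BrM, 2 EO771 BrM, 3 spleens and 1 bone marrow of mice with PyMT BrM, and 2 naïve spleens and 2 naïve bone marrows. The cancer cells, PyMT or EO771, are murine breast cancer cells that were placed directly into the brain, so the tumors are models of established BrM and not of spread from the breast. All animals were C57Bl/6J mice of 14 weeks. Tumors were grown in irradiated chimeras whose marrow came from donors with GFP under the ubiquitin C promoter, GFP+ cells were sorted from naïve mice too, and the sort for GFP left out CD11b+ cells of the host. Naïve spleens and marrow stood in for those of EO771 mice, so the tumor model and the state of the control mice cannot be told apart in a comparison of the models. The methods describe the arrays as biological replicates and list 1 more PyMT spleen than the 3 analysed here. The label of the second EO771 BrM carries a pair of numbers and the naïve bone marrow labels share a code stem, and the sources used here do not say whether material was pooled or came from the same mouse. Across the probes with a mean signal above the median of probe means, the naïve bone marrow arrays correlated with r = 0.990. This was the highest of any pair within a condition, where the lowest was 0.885. Few arrays stood behind each condition, which limits the precision of every value.

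DAB2 is a cytosolic adaptor of clathrin-mediated endocytosis. It binds sorting signals in the tails of low-density lipoprotein receptor family members and integrins and hands them to the AP2 complex, and it has also been tied to signaling from transforming growth factor beta (TGF-beta) receptors to SMAD proteins. Macrophages are among the cells known to express it. EMP1 is a small glycoprotein that spans the membrane several times, belongs to the PMP22/EMP family, and is best known from epithelial cells.

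Because promoters were what the study looked for, the start regions of both genes are shown here, from 250 bases before to 50 after each annotated transcript start (RefSeq, GRCm38.p6). Capitals mark 3 motifs on either strand, the PU.1/ETS core GAGGAA, the C/EBP motif TTGCNNAA and the AP-1 motif TGANTCA, which are bound by factors of the myeloid lineage and of stimulated cells. Both genes lie on the plus strand, and the promoter table holds a pair of starts for each.
Dab2 start 1, chr15:6299539-6299838: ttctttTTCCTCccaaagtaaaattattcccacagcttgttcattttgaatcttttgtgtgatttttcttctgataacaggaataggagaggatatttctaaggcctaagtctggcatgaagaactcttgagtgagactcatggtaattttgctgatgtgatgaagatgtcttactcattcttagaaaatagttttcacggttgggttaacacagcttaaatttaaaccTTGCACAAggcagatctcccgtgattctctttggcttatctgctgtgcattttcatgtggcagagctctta
Dab2 start 2, chr15:6386498-6386797: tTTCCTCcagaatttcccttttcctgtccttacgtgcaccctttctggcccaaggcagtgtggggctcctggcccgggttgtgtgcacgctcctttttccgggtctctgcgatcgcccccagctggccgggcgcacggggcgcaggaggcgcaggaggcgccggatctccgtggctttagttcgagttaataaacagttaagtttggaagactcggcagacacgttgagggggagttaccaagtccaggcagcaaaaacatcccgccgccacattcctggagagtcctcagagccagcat
Emp1 start 1, chr6:135362681-135362980: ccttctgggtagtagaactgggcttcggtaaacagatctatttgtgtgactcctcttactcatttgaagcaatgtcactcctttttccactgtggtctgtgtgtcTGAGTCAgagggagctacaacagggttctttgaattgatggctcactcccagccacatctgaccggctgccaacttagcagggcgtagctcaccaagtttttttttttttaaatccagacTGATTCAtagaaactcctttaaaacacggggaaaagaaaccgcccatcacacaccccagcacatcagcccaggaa
Emp1 start 2, chr6:135367243-135367542: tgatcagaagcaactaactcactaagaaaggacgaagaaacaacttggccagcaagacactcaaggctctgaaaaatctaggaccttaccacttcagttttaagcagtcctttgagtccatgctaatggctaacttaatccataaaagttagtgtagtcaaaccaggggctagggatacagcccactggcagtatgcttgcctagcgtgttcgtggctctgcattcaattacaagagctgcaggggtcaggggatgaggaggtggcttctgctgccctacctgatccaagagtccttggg

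Dab2 (NCBI gene 13132) covers 140928 bases of chromosome 15, and its second start lies 86959 bases downstream of its first. The first start region was poor in G and C (37.7%) with 2 CpG dinucleotides, and the second was rich (59.3%) with 19, against medians of 52.7% and 7 over 32851 annotated promoters. Emp1 (NCBI gene 13730) covers 20624 bases of chromosome 6, with these starts 4562 bases apart. The gene record begins at base 135362550, upstream of both, so both Emp1 regions lie inside the annotated gene. Its start regions held 46.7% and 48.0% G and C with 5 and 3 CpG dinucleotides.

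Of 9 motifs searched on both strands, the first Dab2 start held GAGGAA at -244 to -239, read as TTCCTC on the plus strand, and the C/EBP match TTGCACAA at -21 to -14. It also held the STAT motif TTCNNNGAA at -72 to -64. The second Dab2 start held GAGGAA at -249 to -244 and ACGTG, the core of the hypoxia response element, at -219 to -215 and -30 to -26. GAGGAA occurred in 28.3% of all promoters, TTGCNNAA in 10.8%, TTCNNNGAA in 8.3% and ACGTG in 19.6%, with 8.21% holding ACGTG at least 2 times. The first Emp1 start held the AP-1 motif at -145 to -139 (TGAGTCA) and at -25 to -19 (TGATTCA), and the STAT motif at -120 to -112 and at -22 to -14, where it overlapped the second AP-1 match. An AP-1 match was present in 7.81% of promoters and 2 or more in 0.46%, and 2 or more STAT matches in 0.457%. The first Emp1 start also held the GC box GGGCGG at 14 to 19, which 35.7% of promoters held. The second Emp1 start matched none of the 9 motifs. No start matched the IRF motif of interferon response genes, the TATA box TATAAA or the E-box CACGTG, which holds ACGTG within it. These were found in 3.44%, 13.6% and 7.15% of promoters. These matches are descriptions of letters and not of factor binding.

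Dab2 signal was high on all 6 BrM arrays and low on all 8 control arrays, in both cancer models. On its brightest probe, ILMN_3091641, log2 signals were 12.66, 11.96, 12.15 and 12.17 in PyMT BrM 1 to 4 and 12.39 and 11.76 in EO771 BrM 1 and 2. They were 4.84, 5.30 and 5.26 in PyMT spleens 1 to 3, 5.97 in the PyMT bone marrow, 5.30 and 5.32 in naïve spleens and 4.58 and 4.99 in naïve bone marrow. The groups did not overlap, and the lowest BrM array was 5.79 log2 units above the highest control array, the PyMT bone marrow. Every BrM array lay above every control array for 3.26% of all probes, and because this contrast chose the genes nothing is read from it. Among gene representatives, the probe with the highest mean for each gene, the Dab2 gap ranked 3 of 19057.

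The mean (SD) log2 signal of this probe was 12.18 (0.32) over the 6 BrM arrays and 5.19 (0.41) over the 8 control arrays, a difference of 6.99 or 127-fold. It was 6.89 between PyMT BrM and the 4 control arrays of PyMT mice and 7.03 between EO771 BrM and the 4 naïve arrays. BrM signals lay at or above the 98.9th percentile of the probes on their array, whereas control signals lay between the 62.8th and the 76.9th. The control signals were above the median of all probes (4.06), but detection p-values were not used here. Whether they stood above background was therefore not determined, and a fold over them is bounded by the background of the array. In sorted bulk cells, fewer cells of a type and less RNA per cell cannot be told apart.

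A second Dab2 probe, ILMN_1243329, gave nearly the same picture. Its log2 signals were 12.50, 11.51, 11.74 and 11.75 in PyMT BrM 1 to 4 and 12.60 and 12.06 in EO771 BrM, against 4.67, 4.84 and 4.41 in PyMT spleens, 5.33 in the PyMT bone marrow, 5.36 and 5.99 in naïve spleens and 5.32 and 4.98 in naïve bone marrow. The highest control array was here a naïve spleen and not the PyMT bone marrow, with a gap of 5.52 and a mean difference of 6.91.

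The third probe, ILMN_2543173, also separated the groups, by less. Its log2 signals were 9.35, 8.20, 7.93 and 8.42 in PyMT BrM 1 to 4 and 9.22 and 8.49 in EO771 BrM, against 4.70, 4.88 and 5.78 in PyMT spleens, 4.87 in the PyMT bone marrow, 4.44 and 4.75 in naïve spleens and 4.42 and 5.03 in naïve bone marrow. PyMT spleen 3 was the highest control array, the gap was 2.15 and the mean difference 3.74, or 13.4-fold.

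The fourth probe, ILMN_3019670, did not separate the groups. Its log2 signals were 3.44, 3.31, 3.74 and 3.75 in PyMT BrM 1 to 4 and 2.88 and 2.29 in EO771 BrM, against 4.59, 3.84 and 3.78 in PyMT spleens, 3.91 in the PyMT bone marrow, 2.34 and 3.38 in naïve spleens and 3.15 and 2.33 in naïve bone marrow. All but the first PyMT spleen were below the median of all probes, and the groups overlapped, with mean (SD) = 3.23 (0.56) in BrM and 3.42 (0.79) in the controls. This probe is annotated to the same RefSeq transcript as the brightest probe. Probe sequences were not analysed here, so which exon each probe reads is not stated.

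After centring each probe on its own mean over the 14 arrays, the brightest Dab2 probe and ILMN_1243329 differed by a root mean square of 0.46 log2 units. ILMN_2543173 differed from them by 1.66 and 1.68, and ILMN_3019670 differed from the other 3 by 3.61, 3.63 and 2.09. Thus 2 of the 4 probes followed one another closely, 1 followed at a smaller amplitude and 1 was flat.

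Emp1 was likewise high in BrM and low in the controls, with a wider spread on both sides. Log2 signals of its single probe, ILMN_2642913, were 12.58, 11.24, 10.66 and 11.20 in PyMT BrM 1 to 4 and 13.56 and 13.12 in EO771 BrM. They were 4.78, 5.41 and 6.78 in PyMT spleens, 6.48 in the PyMT bone marrow, 5.27 and 4.93 in naïve spleens and 5.65 and 5.73 in naïve bone marrow. The groups did not overlap, PyMT spleen 3 was the highest control array and PyMT BrM 3 the lowest BrM array, and the gap between them was 3.88. The mean (SD) was 12.06 (1.18) over BrM and 5.63 (0.70) over control arrays, a difference of 6.43 or 86.3-fold. The difference was 5.56 (47.2-fold) in the PyMT model and 7.94 (246-fold) in the EO771 model. Within the PyMT model the gap between arrays was 3.88, and within the EO771 model it was 7.39. Every BrM array lay above every control array for 3.26% of all probes, 8.77% within PyMT and 16% within EO771. Nothing is read from this lack of overlap, because the contrast chose the genes.

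**Figure D1:**
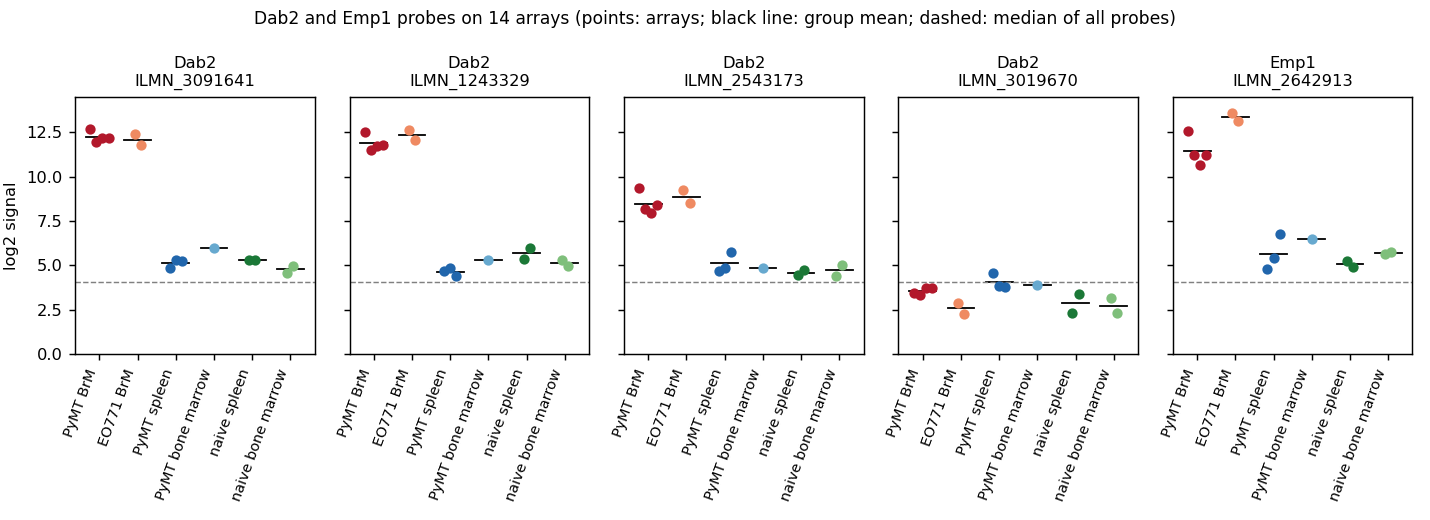
Log2 signal of the 4 Dab2 probes and the Emp1 probe (vertical axis) on each of the 14 arrays in 6 conditions (horizontal axis), with points for arrays, black lines for condition means and a dashed line at the median of all probes (4.06). On 4 of the 5 panels the 6 BrM arrays lie above all 8 control arrays, and on the panel of ILMN_3019670 they overlap.

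The order of the conditions differed between the genes. For the brightest Dab2 probe it was PyMT BrM, with mean (SD) = 12.23 (0.30), EO771 BrM with 12.07 (0.45), the PyMT bone marrow with 5.97, naïve spleens with 5.31 (0.02), PyMT spleens with 5.13 (0.25) and naïve bone marrow with 4.78 (0.29). Arrays of PyMT and EO771 BrM overlapped, as did those of naïve and PyMT spleens and those of PyMT spleens and naïve bone marrow. For Emp1 it was EO771 BrM with 13.34 (0.32), PyMT BrM with 11.42 (0.82), the PyMT bone marrow with 6.48, naïve bone marrow with 5.69 (0.05), PyMT spleens with 5.65 (1.02) and naïve spleens with 5.10 (0.24). The PyMT bone marrow, naïve bone marrow and naïve spleens all lay within the range of the PyMT spleens. The PyMT bone marrow was 1 array, so the error of its place in either order could not be estimated.

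The same PyMT tumor, BrM 1, gave the highest PyMT BrM signal on the 3 responding Dab2 probes and on the Emp1 probe. For the brightest Dab2 probe it lay 0.49 above the next PyMT tumor, and for Emp1 1.34 above. It also had the lowest neutrophil list signal of the PyMT tumors, and the part of this in the Dab2 and Emp1 values was not tested. Where sample codes joined a PyMT BrM to a spleen, the brightest Dab2 probe was 7.31, 6.66 and 6.91 log2 units higher in BrM than in the spleen of the same code, and Emp1 5.88, 5.83 and 4.42 higher. The lowest of the Emp1 values belonged to the code of PyMT spleen 3.

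Comparisons other than BrM against controls were tested with limma over all probes (two-sided, Benjamini-Hochberg adjustment, adjusted p threshold of 0.01). The study took forward probes that were much higher in BrM of both models. Comparisons between the models are therefore not free of that choice, and a small difference there may partly follow from it. The question was whether either gene differed between the tumors of the 2 models. The brightest probe differed by 0.16 log2 units between PyMT and EO771 BrM (SE 0.28, 95% interval -0.45 to 0.77, adjusted p = 0.812), and the differences of ILMN_1243329 and ILMN_2543173 were -0.46 (adjusted p = 0.475) and -0.38 (adjusted p = 0.687). A difference that misses the threshold does not show equal levels.

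Emp1 was lower in all 4 PyMT BrM than in both EO771 BrM, by 1.92 log2 units or 3.78-fold (SE 0.55, 95% interval -3.12 to -0.72). The unadjusted p of this limma test was 0.00454 and the adjusted p 0.0630, which missed the threshold. In 17.2% of all probes every PyMT BrM array was below every EO771 BrM array, so a lack of overlap between 4 and 2 arrays was common. Of the 5 Dab2 and Emp1 probes, 0 passed the threshold, against 1.59% of all probes called. An unadjusted p under 0.05 was found for 2, Emp1 and the flat Dab2 probe (0.98 higher in PyMT BrM, adjusted p = 0.149). Over all 45281 probes, 9247 had an unadjusted p under 0.05 in this limma comparison.

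Neutrophil markers ran largely opposite to Emp1 across the tumors. The mean log2 signal of 11 neutrophil genes was 6.92, 8.31, 9.83 and 8.83 in PyMT BrM 1 to 4 and 6.88 and 6.67 in EO771 BrM 1 and 2. The tumors with the lowest neutrophil signal, both EO771 BrM and PyMT BrM 1, had the highest Emp1 signal, and PyMT BrM 3 had the highest neutrophil and the lowest Emp1 signal. Of the 11 neutrophil genes, 0 passed the threshold between PyMT and EO771 BrM in limma, against 1.59% of all probes. All 11 were higher on average in PyMT BrM, by 0.12 (S100a9) to 3.25 (Ngp), with a lowest adjusted p of 0.0392 (Mmp9). The part of neutrophil RNA in the Emp1 difference was not tested.

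The gap between BrM and controls could also be compared between the models. For the brightest Dab2 probe the PyMT gap minus the EO771 gap was -0.14 log2 units (SE 0.43, 95% interval -1.07 to 0.79, adjusted p = 0.967). For Emp1 it was -2.39 (SE 0.72, 95% interval -3.93 to -0.84), with an unadjusted p of 0.00518 and an adjusted p of 0.260 from limma. None of the 5 probes passed, and 0.13% of all probes were called. An unadjusted p under 0.05 was reached by 1 of the 5 and by 4028 of all 45281 probes. This test rests on the same BrM arrays as the direct comparison of the tumors and adds the control arrays of PyMT and naïve mice.

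Neither gene passed the threshold in either comparison run among the control tissues, and the single PyMT bone marrow array was in neither. Between naïve spleens and naïve bone marrow, the brightest Dab2 probe differed by 0.53 (SE 0.32, adjusted p = 0.506) and Emp1 by -0.59 (SE 0.64, adjusted p = 0.766) in limma. None of the 5 probes had an unadjusted p under 0.05, and 0% of all probes were called, although 6794 of them had an unadjusted p under 0.05. That 0 rests on 1 array: without PyMT spleen 2, which enters through the shared spread, 1481 probes were called, and 1644 with array weights, none of them a Dab2 or Emp1 probe. Spleens of mice with PyMT BrM and naïve spleens differed by -0.18 (SE 0.29, adjusted p = 0.781) for the brightest Dab2 probe and by 0.56 (SE 0.58, adjusted p = 0.641) for Emp1. In this comparison 0.115% of all probes were called and 0 of the 5. At an unadjusted p under 0.05 there were 2 of the 5, against 8799 of all 45281 probes. The 2 were ILMN_1243329 with -1.04 (adjusted p = 0.120) and ILMN_3019670 with 1.21 (adjusted p = 0.117), which are probes of the same gene with opposite signs.

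**Figure D2:**
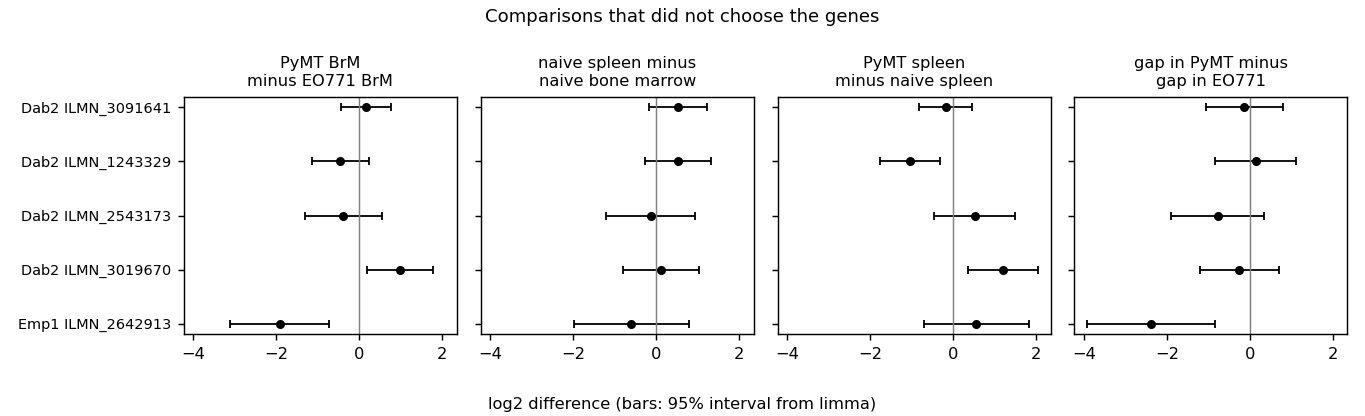
Log2 differences (horizontal axis, points) with 95% limma intervals (bars) for each Dab2 and Emp1 probe (rows) in the 4 comparisons tested. Despite the heading above the panels, the comparisons between the models are not free of the choice of the genes. The Emp1 intervals lie below 0 for PyMT BrM minus EO771 BrM (-3.12 to -0.72) and for the gap in PyMT minus the gap in EO771 (-3.93 to -0.84), and none of the differences passed the adjusted threshold.

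Dab2 and Emp1 were among 10 genes that the study carried forward to PCR, of which 8 had a probe of their symbol here. All 8 had every BrM array above every control array, as they were selected on these arrays, within models too, where this held for 8.77% of all probes in PyMT and 16% in EO771. Of the 8, Dab2 had the widest gap between arrays (5.79), followed by Ccl7, a monocyte chemoattractant (5.29), and Mmp14, a membrane-bound metalloproteinase (5.03), with Emp1 at 3.88. The gaps of Trem2, a lipid-sensing receptor of macrophages and microglia, the chemokine Cxcl16, Arg1 and the chemokine Cxcl10 were 3.02, 2.46, 2.45 and 2.03. The span of the 6 BrM arrays was 0.69 log2 units for Trem2, 0.85 for Mmp14 and 0.90 for Dab2, while Emp1 spanned 2.90.

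Arg1, the arginase of alternatively activated macrophages, showed the other extreme. Its BrM signals ran from 6.97 to 12.78, and it was 4.20 log2 units higher in PyMT than in EO771 BrM (limma, adjusted p = 0.0034). It was the only 1 of the 8 that passed, against 1.59% of all probes called in either direction. Its gap difference between models was 4.57 (SE 0.76, adjusted p = 0.0184), against -2.39 for Emp1 and -0.14 for Dab2.

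**Figure D3:**
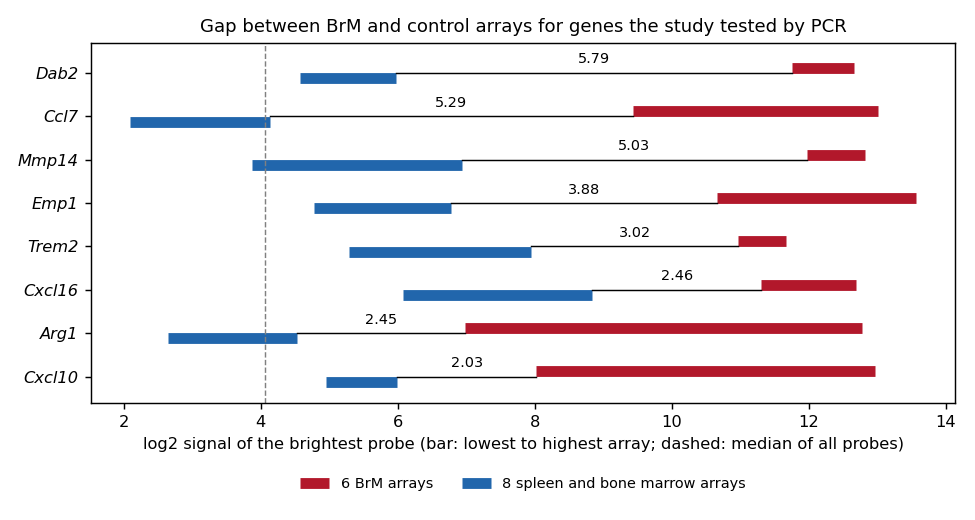
Range of log2 signal (horizontal axis) of the brightest probe of each of 8 genes taken to PCR (rows), for the 6 BrM arrays (red) and the 8 spleen and bone marrow arrays (blue), with the gap between them written above the joining line and a dashed line at the median of all probes. Dab2 has the widest gap (5.79) and a narrow BrM range, and Emp1 a gap of 3.88 with BrM arrays spread over 2.90 log2 units.

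Genes most like each member were found by the root mean square difference of centred log2 signals over the 14 arrays, among the brightest probes of all genes. For Dab2 these were Ccl12 (0.58), Olfml3 (0.80), Mmp13 (0.86), Emp1 (0.88) and Prune2 (0.97). For Emp1 they were Ccl12 (0.87), Dab2 (0.88), Mmp13 (0.90), Ccl7 (0.95) and Mmp14 (0.98). Dab2 and Emp1 thus stood among the nearest 5 of each other, and Ccl12, a monocyte chemoattractant, was nearest to both. The measure is led by the step between BrM and controls, which all these genes share.

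Genes of the clathrin machinery around DAB2 were compared between BrM and controls. Of 21 measured genes for clathrin, the AP2 complex and endocytic scaffolds, 0 were higher in BrM and 2 were lower (limma, 6 BrM against 8 control arrays), against 3.8% of all probes called higher and 3.12% called lower. Their median difference was -0.10, with -0.01 over all probes. The 2 were Fcho1, which helps start clathrin-coated pits, with -1.30 (SE 0.28, adjusted p = 0.00476), and Itsn2, an endocytic scaffold, with -1.01 (SE 0.18, adjusted p = 0.00122), whose second probe gave 0.24 (adjusted p = 0.553). Genes are counted by their brightest probe here and below, whereas the shares are over all probes, also dim ones and those without a symbol. Ap2m1, the subunit of AP2 that reads sorting signals, differed by -0.10 (adjusted p = 0.782), Clta by 0.62 (adjusted p = 0.0608) and Dab1, the neuronal relative of Dab2, by 0.14 (adjusted p = 0.778). Leaving out 1 BrM array gave 1 gene lower in place of 2 (PyMT BrM 1, PyMT BrM 2 or EO771 BrM 1) or 1 gene higher (PyMT BrM 3), and a looser adjusted p threshold of 0.05 gave 3 genes higher and 4 lower.

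Of 9 measured cargo receptors and partners of DAB2, 3 were higher in BrM and 0 lower, against 3.8% and 3.12% of all probes. The median difference of the 9 was 0.06. Integrin alpha 5 (Itga5) was higher by 2.15 (SE 0.24, adjusted p = 2.08e-05), Lrpap1, the chaperone of lipoprotein receptors, by 1.87 (SE 0.18, adjusted p = 2.92e-06), and integrin beta 1 (Itgb1) by 1.36 (SE 0.27, adjusted p = 0.00248). A second Itgb1 probe gave 0.88 and just missed the threshold. Lrp1, an endocytic receptor of macrophages, differed by 1.28 (adjusted p = 0.0727) and Lrp2, the partner of DAB2 in the kidney, by -0.13 (adjusted p = 0.739).

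The median difference of 15 measured genes of the TGF-beta pathway was 0.41. Against 3.8% of all probes called higher and 3.12% called lower, 4 of these genes were higher in BrM and 0 lower. They were the type I receptor Tgfbr1 with 1.49 (SE 0.18, adjusted p = 3.75e-05), the inhibitors Skil with 1.31 (SE 0.17, adjusted p = 6.47e-05) and Ski with 1.18 (SE 0.23, adjusted p = 0.00210), and the induced matrix protein Tgfbi with 1.11 (SE 0.20, adjusted p = 0.00120). Of the further probes, 1 of 3 for Tgfbr1, 0 of 2 for Skil, 0 of 1 for Ski and 1 of 1 for Tgfbi were called higher. Tgif1, a repressor of TGF-beta signaling, is not among the 4, as its brightest probe gave 2.07 (adjusted p = 0.0323), but its other probes were higher by 2.65 (adjusted p = 1.24e-05) and 2.27 (adjusted p = 0.000252). The ligand Tgfb1 differed by -0.02 (adjusted p = 0.976), and the mediators Smad2 and Smad3 by 0.01 (adjusted p = 0.992) and -0.42 (adjusted p = 0.290). Between the tumors, only Tgif1 of the 15 passed, 2.56 lower in PyMT than in EO771 BrM (SE 0.38, adjusted p = 0.00364). Over all probes 1.59% were called in either direction there.

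In the PMP22/EMP family around Emp1, with a median of 0.11, 2 of 7 other genes were higher and 1 lower. Over all probes these shares were 3.8% and 3.12%. Emp2 was higher by 2.25 (SE 0.29, adjusted p = 7.98e-05) and Pmp22, the peripheral myelin protein, by 2.20 (SE 0.30, adjusted p = 0.000126). Nkg7, a granule membrane protein of cytotoxic lymphocytes, was lower by 2.88 log2 units (SE 0.45, adjusted p = 0.000414). Emp3, bright in both groups with means of 12.88 in BrM and 12.28 in the controls, differed by 0.60 (adjusted p = 0.201).

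**Figure D4:**
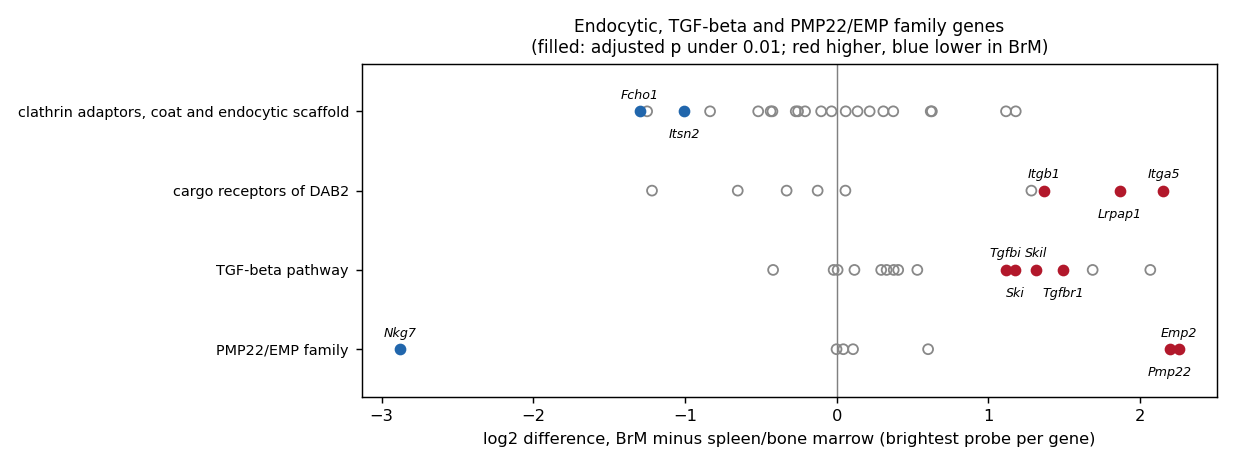
Log2 difference of the 6 BrM arrays over the 8 control arrays (horizontal axis) for the brightest probe of each gene in 4 groups around Dab2 and Emp1 (rows), filled where the limma adjusted p was under 0.01, red for higher and blue for lower in BrM. The named genes lie between -2.88 (Nkg7) and 2.25 (Emp2), and most endocytic and pathway genes are open circles near 0.

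Other markers moved with the split by which Dab2 and Emp1 separated. Over all probes, 3.8% were called higher in BrM and 3.12% lower. Of 11 measured macrophage genes 6 were higher in BrM and 0 lower, with mean list signals of 10.84 to 11.21 in BrM and 7.97 to 10.004 in the controls. Of 11 neutrophil genes all were lower, with 6.67 to 9.83 in BrM and 12.20 to 13.47 in the controls. Neither of these ranges overlapped between the groups, and their part in the Dab2 and Emp1 differences was not tested. Adgre1, which encodes F4/80, was not among the 6, as its brightest probe differed by 1.10 (adjusted p = 0.0261), but another of its 3 probes, ILMN_2756353, was 2.94 higher in BrM (adjusted p = 8.76e-07). Both probes of Csf1r, the receptor of colony-stimulating factor 1, missed the threshold (1.14, adjusted p = 0.167, and 1.70, adjusted p = 0.0348).

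Of 6 measured microglia genes 3 were higher in BrM (Fcrls by 8.77, Olfml3 by 6.34 and Tmem119 by 4.96), and P2ry12 differed by 0.40 (adjusted p = 0.359), Sall1 by 0.54 (adjusted p = 0.109) and Siglech by -0.91 (adjusted p = 0.128). Their mean signals were 7.37 to 8.46 in BrM and 4.56 to 5.22 in the controls. Of 7 fibroblast genes 3 were higher (Pdgfra, Dcn and Lum), whereas Col1a1, Col1a2 and Col3a1 did not pass. Mean list signals were 3.96 to 5.13 in BrM and 3.45 to 3.91 in the controls, the latter below the median of all probes (4.06). Further probes differed by 0.03 for Pdgfra (limma, adjusted p = 0.955) and 0.24 for Lum (adjusted p = 0.578). For Dcn they differed by 0.85 (adjusted p = 0.00682), -0.32 (adjusted p = 0.717) and -0.58 (adjusted p = 0.259). Of 6 endothelial genes 0 passed, and of 7 brain genes 1 (Mbp) was lower. The part of these markers was not tested either, and 3.8% of all probes were called higher in BrM and 3.12% lower.

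Because EMP1 is known from epithelial cells, the epithelial list was read beside it. Of 9 genes, 2 were higher in BrM than in the controls (Krt8 by 3.10 and Cdh1 by 1.46), against 3.8% of all probes called higher. Epcam lay between 2.53 and 3.12 in BrM and between 2.41 and 3.36 in the controls, below the median of all probes. Further probes of Krt8 and Cdh1 differed between BrM and controls by 0.03 (limma, adjusted p = 0.964) and 0.42 (adjusted p = 0.368). Mean list signals were 4.97 to 5.75 in PyMT BrM and 4.18 to 4.28 in EO771 BrM. Krt14, Krt18 and Cdh1 were higher in PyMT than in EO771 BrM (limma, adjusted p = 0.00168, 0.00946 and 0.00667), which is 3 of 9 epithelial genes, against 1.59% of all probes called in either direction. The part of epithelial RNA in the Emp1 values was not tested. Among 11 reference genes, 10 did not pass and Gusb was 1.65 higher in BrM.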

How the data were processed

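GFP+CD11b+ cells were profiled on 14 single-color arrays. The deposited values are log2 signals per probe, which the authors background-corrected and quantile normalized. GenomeStudio 2011.1 and limma (version not given) are named in the submitters' processing notes, and the method of background correction is not given in the sources used here. Gene symbols came from the platform annotation (34885 of 45281 probes with 1 symbol, 18 with several, 10378 with none). Some listed genes had no probe of their symbol here.

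Computations used R 4.3.3 and limma 3.58.1 (lmFit and eBayes, no trend) on all probes without a filter. A fit of 6 conditions, one of 4 groups and one of BrM against pooled spleen and bone marrow were made. The fits were tested on simulated data. The members, gene lists and tests were chosen with earlier results of these data known. Named were all Dab2 and Emp1 probes, the genes the study took to PCR, up to 4 called genes per direction and list, and the 5 nearest genes by root mean square. Other genes named for context were picked after their values were seen. A gene was represented by its brightest probe. Alternatives were other normalizations, variance models, filters, blocks, controls, samples in the fit, a two-sided t-test and leaving out each array. Promoter sequences and gene positions are from RefSeq (GRCm38.p6).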

Additional observations from a re-analysis of the deposited data

Results flagged for a closer look

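The Dab2 probe ILMN_2543173 read 5.78 in PyMT spleen 3 and stood apart from the other control arrays. Its distance to the nearest other array was 0.552 of the range of all 8 spleen and bone marrow arrays and 0.837 of the range of the 4 from PyMT mice, both beyond Dixon's 95% limit. The other Dab2 probes read 5.26, 4.41 and 3.78 on that array, none of which stood apart, and Emp1 had its highest control signal there (6.78). In all, 2 of 25 such checks passed the limit, where chance alone passes about 1 in 20, and these 2 share the array and the probe.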

How the results depend on the processing

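None of the 20 Dab2 and Emp1 tests passed the threshold in the analysis given above or under any alternative run. For Emp1, PyMT minus EO771 BrM ran from -2.31 to -1.67 (adjusted p 0.0112 to 0.376 over 25 alternatives) and the gap difference from -2.77 to -2.08 (0.110 to 0.765 over 23). The BrM minus control difference of Dab2 was 4.37 with all 4 probes averaged, against 6.99 for the brightest probe, since the average takes in the flat probe and that of smaller amplitude. That of Emp1 was 5.11 with PyMT arrays of PM codes only, against 6.43. Those codes hold PyMT BrM 1 and 4 and, as the only control, PyMT spleen 3, the highest Emp1 control array (6.78). With a replicate block by mouse code, Emp1 differed by -1.92 between the tumors (adjusted p = 0.0627), the paired BrM minus spleen means were 6.96 for Dab2 and 5.38 for Emp1, and no call changed. Same-code arrays of 3 pairs deviated with r of -0.044, -0.0048 and -0.021, and the labels do not say that codes are mice. Probes called between the tumors were 719, against 1477 with a variance trend, 2987 with array weights, 1251 with a filter on dim probes, 404 with naïve bone marrow averaged, 298 with only those groups and 0 by a two-sided t-test. The methods name such a test for the study's data in general, and the processing notes name limma. Leaving out 1 array gave 35 (without EO771 BrM 1) to 1630 (without PyMT spleen 2). Calls between naïve tissues (0) were 1 or 2 under 5 alternatives beside those given above. Between spleens there were 52, against 323 with the trend, 295 with the filter, 0 with reference centring, averaged marrow, only those groups or the t-test, and 0 to 166 with 1 array left out. For the gap difference there were 59, against 95 with the trend or weights, 37 with a block by title number, 24 with averaged marrow and 2 to 51 with 1 array left out. Reference-gene centring shifted all probes by -0.30 between BrM and controls.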
